A study of Ovis aries and Bos taurus with 6 samples.

Results

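miR-191, miR-423, miR-16a, miR-16b, miR-320a and miR-484 are miRNAs that are often used as internal references when small RNA of vesicles or body fluids is quantified. They were examined here as a group of 6 named miRNAs, or 7 with the arms of miR-423 counted apart, in extracellular vesicles of sheep and cow milk. Rows were taken by name: 7 of 779 rows of the cow table carry these names, and 5 of 685 rows of the sheep table were assigned to them, which makes 12 of 1464 rows in all. In the sheep table miR-191 and miR-16b carry a miRBase name (the miRNA registry), while both arms of miR-423 and miR-320a are rows without a miRBase name that were assigned by their listed sequence. No sheep row was assigned to miR-484 or miR-16a, so those are described in cow milk only.

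The study sequenced small RNA of milk vesicles from 3 sheep of the Ordos fine wool breed, females in mid lactation, to compare their miRNAs with those of cow milk vesicles. The cow group is 3 libraries from Holstein females in mid lactation. The labels name the same precipitation and column kits for all 6 samples and no treatment. The cow libraries come from an earlier study of the same group, so a difference between the groups may belong to species, to breed or to study, which cannot be told apart here. The labels state 3 animals for sheep and give no number of animals for cow, and p-values measure the spread between these samples only.

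An RT-qPCR or sequencing measurement of vesicle RNA has no fixed number of cells to refer to, and a reference miRNA is meant to stand in for one: the measured miRNA is divided by the reference, so any difference in the reference passes into every other value. miR-191 and miR-423 are expressed in many human tissues, miR-16 is abundant in human red blood cells and belongs to a family that restrains the cell cycle, and miR-320a and miR-484 are known in mammals as miRNAs made without Drosha, the nuclease that cuts most miRNA precursors. The miR-423 hairpin yields a mature miRNA from each arm, so the ratio of its arms compares products of a single precursor.

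The listed sheep sequences are shown because they decide which rows are the same miRNA and which relatives a read could be confused with. They are given 5′ to 3′ as DNA letters, as deposited, with the seed (bases 2 to 8, which pair with target mRNAs) in capitals. The first 5 are the assigned rows, and the last 3 are other sheep rows that share the seed of miR-16b, named by their number in the table.
miR-191: cAACGGAAtcccaaaagcagct
miR-423-5p: tGAGGGGCagagagcgagacttt
miR-423-3p: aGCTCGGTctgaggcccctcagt
miR-320a: aAAAGCTGggttgagagggcgaaaa
miR-16b: tAGCAGCAcgtaaatattgg
novel107_mature: cAGCAGCAcactgtggtttgta
novel60_mature: cAGCAGCAattcatgttttga
novel64_star: tAGCAGCAcagaaatgttggt

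The 5 assigned rows have 5 different seeds, so none of these references shares its seed with another. The miR-16b row lists 20 bases. No further sheep row held a run of 17 bases of any of the 5 sequences. The 3 relatives with the miR-16b seed had few counts, at 8, 45 and 5 for novel107_mature, 8, 4 and 2 for novel60_mature, and 2, 0 and 3 for novel64_star in sheep replicates 1, 2 and 3. Rows with the seeds of miR-191, miR-423-3p and miR-320a were limited to the assigned rows. The cow table lists no sequences, and names there are the authors'.

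The sheep libraries held 1073914 to 2078695 miRNA counts and the cow libraries 328527 to 556489. A count of 0 allows at most 2.79 CPM (the usual depth-scaled count, taken over all miRNA counts of a library) in the shallowest sheep library and 9.13 CPM in the shallowest cow library, from a floor of 3 counts, which covers counting error only. The libraries differ in how much a single row takes: miR-148a, a miRNA of lactating mammary epithelium, held 19.6% to 63.6% of the counts of a sheep library, and an unnamed row held 51.2% to 68.9% in the cow libraries. Every share of all counts moves with these rows, the CPM of each library below included, so the spread within and the difference between species are also given under other scalings. Sheep replicate 1 had the lowest miR-148a share and also 637 CPM of the lymphocyte miRNA miR-150, against 30.8 and 36.3 CPM in sheep replicates 2 and 3. Cow replicates 1, 2 and 3 had 2806, 5704 and 3012 CPM of miR-150. Other epithelial miRNAs went the other way from miR-148a and were highest in sheep replicate 1. In sheep replicates 1, 2 and 3 miR-200b had 2411, 763 and 1420 CPM and miR-200c had 3159, 1036 and 2371 CPM. With TMM factors (defined below) over the joined miRNAs, miR-200b had 3871, 2500 and 3446 CPM in these replicates. miR-200c then had 5071, 3395 and 5753 CPM and was highest in sheep replicate 3. Whether cell content differs between the sheep libraries was not tested. Rows with a miRBase name held 41.9% to 78.1% of counts in the sheep libraries and between 15.8% and 29.0% in the cow libraries; whether cow reads of these miRNAs also lie in rows without a name was not tested. Adapter ligation and PCR favour some miRNAs, so an order of counts is not an order of molecules.

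The arms of miR-423 and miR-320a made up most of the group in sheep, and miR-191 did in cow. miR-423-5p had 83601, 66807 and 76519 CPM in sheep replicates 1, 2 and 3, against 11132, 12415 and 7198 CPM in cow replicates 1, 2 and 3. The sheep libraries all lay above the cow libraries and close to each other. miR-423-3p had 12335, 6346 and 7909 CPM in sheep and 1330, 2537 and 1127 CPM in cow, again without overlap. miR-320a had 12224, 4678 and 4459 CPM in sheep and 767, 778 and 1008 CPM in cow. Its sheep values were set apart by replicate 1, while the cow libraries differed little.

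miR-191 went the other way, with 3350, 1397 and 1793 CPM in sheep and 24165, 50651 and 13842 CPM in cow. Sheep and cow libraries did not overlap, and cow replicate 2 was highest. miR-16b was scarce in both species, with 56.7, 99.6 and 26.1 CPM in sheep and 36.5, 104 and 80.0 CPM in cow, on 28 to 207 and 12 to 58 counts. Its groups overlapped. Cow miR-16a had 27.4, 52.1 and 69.6 CPM and cow miR-484 had 438, 760 and 539 CPM in replicates 1, 2 and 3.

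**Figure D1:**
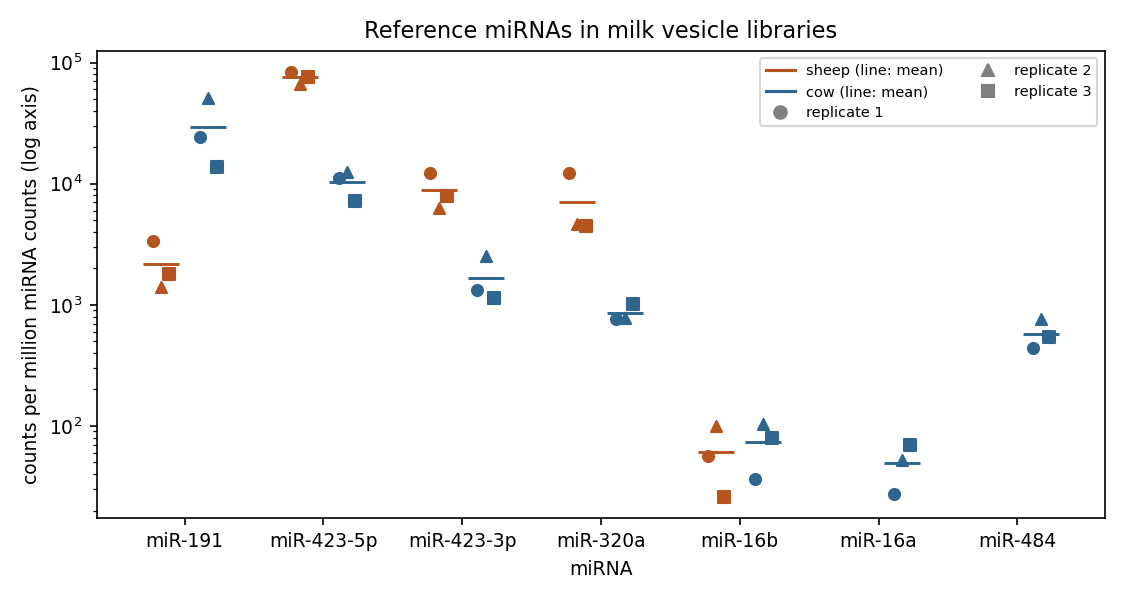
CPM over all miRNA counts (log axis) for each reference miRNA; each symbol is a library, sheep left of cow, and the line is the mean of 3. miR-423-5p, miR-423-3p and miR-320a lie higher in every sheep library and miR-191 lower in every sheep library than in any cow library, while miR-16b overlaps. The share of all joined miRNAs without overlap on CPM was not taken. miR-16a and miR-484 were found in the cow table only.

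The order by mean in sheep was miR-423-5p, miR-423-3p, miR-320a, miR-191 and miR-16b, and the ranges of miR-423-3p and miR-320a overlapped. In cow it was miR-191, miR-423-5p, miR-423-3p, miR-320a, miR-484, miR-16b and miR-16a, and of these neighbours only the ranges of miR-16b and miR-16a overlapped. The 5 miRNAs found in both tables together made up 9.39% ± 1.64 of all counts in sheep libraries and 4.24% ± 2.20 in cow libraries (SD, n = 3 per species, exact two-sided permutation p = 0.1, the smallest that 3 against 3 allows). Among the miRNAs found in both tables alone the order turned, with 14.4% ± 6.26 in sheep libraries against 27.8% ± 4.04 in cow libraries (exact permutation p = 0.1). That denominator leaves out the largest cow row but keeps miR-148a, the largest sheep row. miR-148a held 217525, 1322230 and 407936 of the 579365, 1779249 and 772878 joined counts in sheep replicates 1, 2 and 3. The joined miRNAs held 52.2%, 85.6% and 72.0% of all counts in sheep replicates 1, 2 and 3. They held 14.1%, 20.6% and 9.47% in cow replicates 1, 2 and 3. Both denominators are therefore unlike in the species, and why the order turned was not tested.

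Within sheep, miR-423-5p was the steadiest member as a share of all counts, but not once the libraries were scaled by factors. Its coefficient of variation (CV, SD over mean of 3 libraries) was 11.1% over all miRNA counts, and 2 of 189 rows with at least 100 CPM had a lower one. With TMM factors (a trimmed mean of log ratios between libraries) its CV was 40.3%, and 55 of the 189 rows had a lower one. miR-191 moved the opposite way, at 47.4% over all counts with 51 rows lower and 16.3% with TMM with 17 rows lower. miR-423-3p had 35.05% and 22.0%, and miR-320a had 62.1% and 30.5%. The medians of the 189 rows were 74.2% and 61.9%. miR-16b had the widest spread with TMM, at 106%, where counting alone gives 10.03% at its depth.

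Over 6 scalings (all counts, counts without the largest row, TMM, upper-quartile and RLE factors, deposited TPM) the sheep CV ran from 11.1% to 43.0% for miR-423-5p, 15.5% to 47.1% for miR-423-3p, 13.8% to 58.5% for miR-191, 29.4% to 72.0% for miR-320a and 60.7% to 108% for miR-16b. The median member had 47.4% over all counts and 15.5% without sheep replicate 1. Its miR-320a was 2.74 times that of the lowest sheep library.

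Within cow, over all counts and with TMM, miR-423-5p and miR-320a were the steadiest members and miR-191 the least steady. The CV of miR-423-5p was 26.5% over all counts and 20.7% with TMM, with 25 and 17 of 138 rows of at least 100 CPM lower. Without the largest row in the denominator it was 7.75%, with 0 of the 138 rows lower, and on TPM it was 49.5%. miR-320a had 16.0% over all counts and 26.3% with TMM, and miR-484 had 28.4% and 29.9%. miR-191 had 64.2% and 62.7%, above the medians of the rows compared of 52.9% and 51.3%. Without the largest row miR-191 had 44.7%, below the median of 47.2% and below miR-16a at 61.8%, and miR-320a had 39.7% with 52 rows lower. miR-423-3p had 45.8% and 44.0%, miR-16b 46.6% and 48.9%, and miR-16a 42.7% and 51.2%. For miR-16b and miR-16a counting alone gives 17.2% and 21.5%. Over the 6 scalings the cow CV ran from 7.75% to 49.5% for miR-423-5p, 16.0% to 39.7% for miR-320a, 23.9% to 57.4% for miR-484, 25.8% to 74.7% for miR-423-3p, 42.7% to 61.8% for miR-16a, 46.6% to 69.3% for miR-16b and 44.7% to 91.3% for miR-191. The median member had 42.7% over all counts and 24.1% without cow replicate 1.

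**Figure D2:**
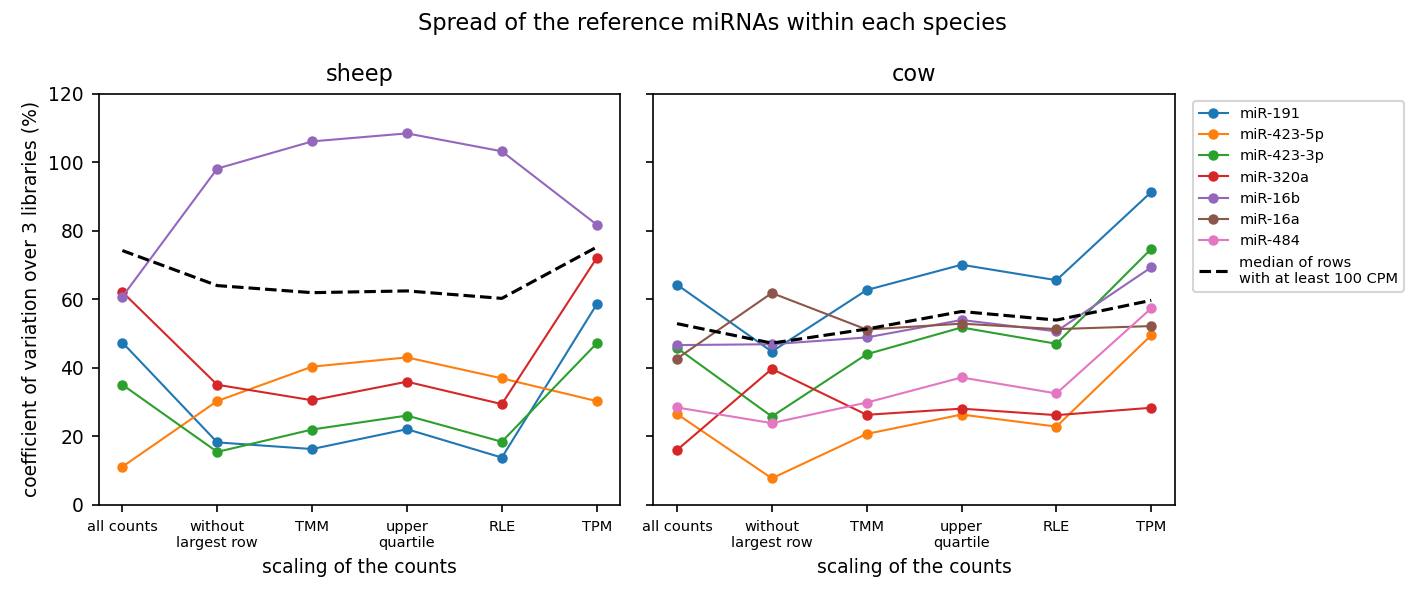
Coefficient of variation over the 3 libraries of a species (%) for each reference miRNA under 6 scalings, sheep left and cow right; the dashed line is the median over rows with at least 100 CPM (189 in sheep, 138 in cow). No member keeps its place across the sheep scalings, miR-16b stands highest there under 5 of them, and cow miR-191 lies above the other cow members under 5 of 6.

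The level of cow miR-16 was set beside markers of red blood cells. Cow miR-451 had 3120, 4311 and 8908 CPM, miR-144 had 161, 219 and 797 CPM and miR-486 had 16531, 10773 and 17853 CPM in cow replicates 1, 2 and 3. All 3 were highest in replicate 3, as was miR-16a, whereas miR-16b was highest in replicate 2. In cow replicates 2 and 3 miR-16a rested on 29 and 27 counts and miR-16b on 58 and 31. The 95% counting intervals of these replicates overlapped for both, so the order of replicates is uncertain for miR-16a and miR-16b. miR-15b, which shares a cluster with a miR-16 gene in human, had 48.7, 115 and 80.0 CPM, close to miR-16b in each cow library. In the sheep table no row carries the name of miR-486, miR-451 or miR-144, and their part in sheep miR-16b was not tested.

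Ratios between members within a library do not depend on any scaling. They set miR-423 with miR-320a on one side and miR-191 on the other, with miR-16b between them. There were 6.84, 14.3 and 17.2 counts of miR-423-5p for each count of miR-320a in sheep, and 14.5, 16.0 and 7.14 in cow. The groups overlapped, and the mean log2 ratio was 3.57 ± 0.70 in sheep and 3.56 ± 0.63 in cow (SD, n = 3), a difference of 0.007. The 5p to 3p ratio of miR-423 was 6.78, 10.5 and 9.67 in sheep and 8.37, 4.89 and 6.39 in cow, also overlapping. miR-423-3p exceeded miR-320a in every library, by 1.01, 1.36 and 1.77 times in sheep and 1.73, 3.26 and 1.12 times in cow.

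miR-191 was outnumbered by miR-423-5p in every sheep library and outnumbered it in every cow library. There were 0.0401, 0.0209 and 0.0234 counts of miR-191 for each count of miR-423-5p in sheep, against 2.17, 4.08 and 1.92 in cow. The mean log2 ratios differed by -6.58 between sheep and cow, which is 95.4-fold. The ratio of miR-191 to miR-423-3p differed by -6.11, that to miR-320a by -6.57 and that to miR-16b by -3.31 on the log2 scale. All 4 had groups that did not overlap, with exact two-sided permutation p = 0.1 each, the smallest possible, and 0.143 after Benjamini-Hochberg adjustment over the 10 pairs. Ratios of miR-423-5p, miR-423-3p and miR-320a to miR-16b differed by 3.26, 2.80 and 3.26, higher in sheep. These groups did not overlap either, with the same p-values in that test, on 12 to 207 counts of miR-16b.

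Of the 10 pairs of members 7 did not overlap between species, against 71.9% of the 861 pairs of miRNAs that were counted in all libraries of both tables, so a lack of overlap is the common case. Differences as large as the smallest of miR-191 with miR-423-5p, miR-423-3p and miR-320a occurred in 20.3% of those pairs. Differences as small as the largest among miR-423-5p, miR-423-3p and miR-320a (0.47 on the log2 scale) occurred in 8.13%. The median size of the difference over the 861 pairs was 3.25, and miR-191 with miR-16b, not among the pairs picked, was at -3.31. Both sets of pairs were picked with these ratios known, and the latter includes both arms of 1 hairpin. The percentages therefore describe the picked pairs and test nothing. Leaving out any single library left 7 or 8 of the 10 pairs without overlap.

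Spread of ratios within a species was lower for member pairs than for most pairs of rows. The pairs were not matched on abundance, and member pairs share members and include both arms of miR-423. Whether the lower spread is particular to the members was not tested. The SD of the log2 ratio over 3 libraries had a median of 0.60 over the 10 member pairs in sheep, against 1.53 over 14878 pairs of rows with at least 100 CPM. In cow it was 0.63 over 21 member pairs, against 1.17 over 9045 pairs. The tightest pair in sheep was miR-191 with miR-423-3p (0.16) and in cow miR-423-3p with miR-484 (0.36). The widest were miR-191 with miR-16b in sheep (1.27) and miR-191 with miR-16a in cow (1.28).

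**Figure D3:**
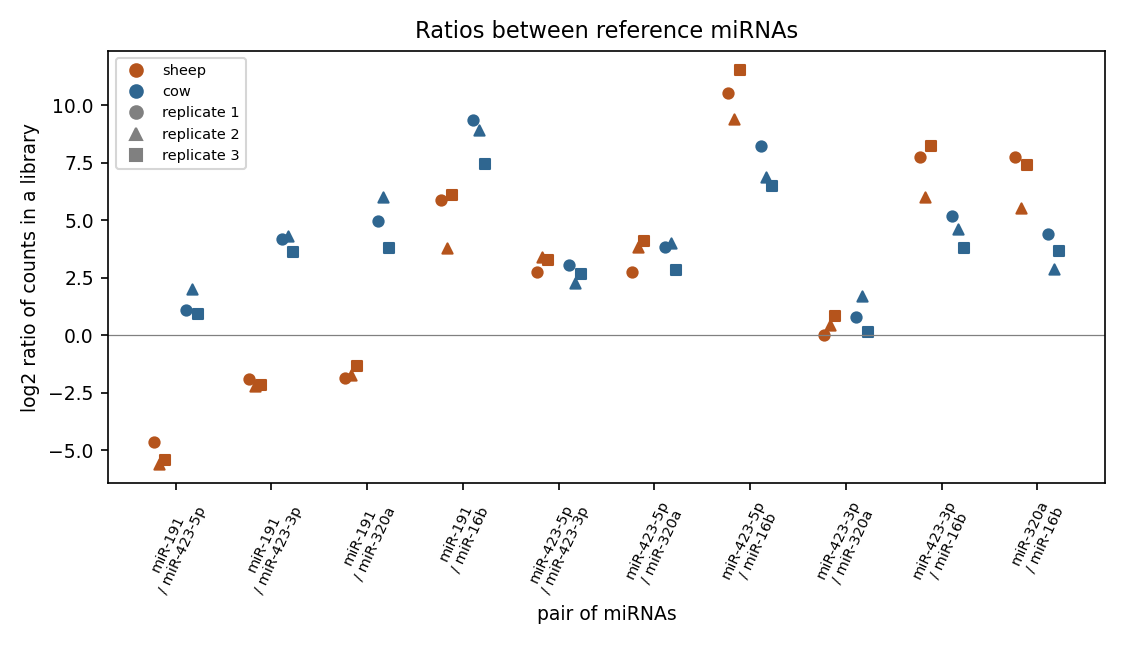
Log2 ratio of counts of 2 reference miRNAs within a library; symbols are libraries, sheep left of cow. Ratios of miR-191 to both arms of miR-423 and to miR-320a lie below 0 in every sheep library and above 0 in every cow library, while the 3 ratios among miR-423-5p, miR-423-3p and miR-320a overlap. Ratios of the other members to miR-16b do not overlap between species.

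Between species, counts were tested over the 57 miRNAs found in both tables, 50 of which passed a filter on low counts, all 5 members among them. With TMM factors, the quasi-likelihood test of edgeR (p-values adjusted by Benjamini-Hochberg over the 50) put miR-423-5p (1.95 ± 0.54 on the log2 scale, SE, adjusted p = 0.00660), miR-320a (1.98 ± 0.46, adjusted p = 0.00177) and miR-423-3p (1.34 ± 0.48, adjusted p = 0.0280) higher in sheep. miR-191 was lower in sheep (-4.89 ± 0.67, adjusted p = 2.51e-05) and miR-16b did not pass (-1.15 ± 1.10, adjusted p = 0.374). The 4 of 5 members called stand against 56.0% of the 50 miRNAs tested (26.0% higher in sheep and 30.0% higher in cow), and the median over all tested was 0.04. On TMM-scaled counts all 3 libraries of each species showed the direction for the 4 members called. Over joined totals with no factors the libraries of miR-423-5p, miR-423-3p and miR-320a overlapped between species. The share of all tested miRNAs without overlap was not taken, so the lack of overlap adds nothing to the calls.

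These TMM values rest in part on single libraries. Without sheep replicate 1 they were 3.31 for miR-423-5p, 2.65 for miR-423-3p, 2.79 for miR-320a and -3.60 for miR-191, and the median over all miRNAs tested moved to 1.37. Without cow replicate 2 miR-423-3p was at 2.03. The call of miR-423-5p was lost without cow replicate 1 (1.80, adjusted p = 0.0806 in edgeR). That of miR-423-3p was lost in 4 fits that each lacked a library: 1.25 with sheep replicate 2 left out, 1.31 with sheep replicate 3 left out, 1.03 with cow replicate 1 left out and 1.136 with cow replicate 3 left out. miR-191 and miR-320a kept their calls without any single library.

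Scaling moved all 5 members together by up to several log2 units. Scaled by the totals of the joined miRNAs with no factors, the sheep to cow difference was 0.68 for miR-423-5p, 0.32 for miR-423-3p and 0.82 for miR-320a. Under that scaling miR-191 alone was called (-5.74), 50.0% of all miRNAs tested were called, and their median was -0.94. With totals of the whole tables they were 2.88, 2.41 and 3.06 and all 3 were called, as was miR-191 (-3.76), where 56.9% were called and the median was 1.144. Upper-quartile factors gave 2.00, 1.498 and 1.87 with miR-191 at -4.63 (60.0% called), and RLE factors gave 2.15, 1.63 and 2.11 with miR-191 at -4.56 (60.0% called). On log2(TPM + 1), limma gave 4.53, 4.04 and 4.48 with miR-191 at -2.03 (61.4% called, median 1.86). The deposited TPM divides each count by a constant that exceeds the library's miRNA counts. The fold change is on the log2(TPM + 1) scale, which understates low miRNAs such as miR-16b. On log2(TPM + 10) the same 4 members were called, where 54.4% were called.

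The remaining settings called the same 4 members, with 1 exception. They were totals of the whole tables without the largest row (60.8% of all miRNAs called), no filter (49.1%), at least 10 counts in every library (73.0%), the replicate number as a block (52.0%) and DESeq2 (57.9%). With rows joined by miRBase name only, 2 members could be tested and miR-191 was called, against 52.6% of all miRNAs.

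miR-191 was lower in sheep and past the threshold under each of these scalings, and miR-16b was past it under none of them. The direction of miR-16b depended on the scaling, from -2.61 with no factors to 0.99 on log2(TPM + 1). With cow miR-16a added to cow miR-16b, a choice made after the data were seen because the sheep table has a single miR-16 row, the difference was -1.83 and did not pass (adjusted p = 0.133 in edgeR).

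**Figure D4:**
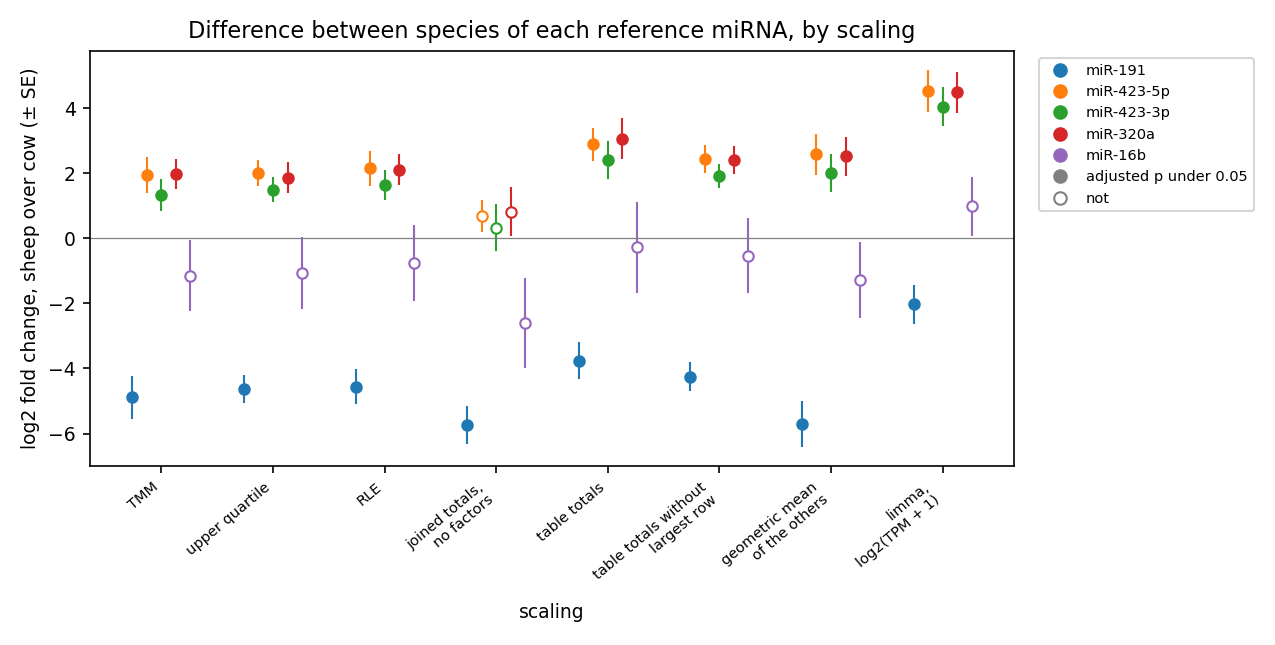
Log2 fold change of sheep over cow (± SE) of each reference miRNA under 8 scalings; filled symbols have an adjusted p under 0.05. miR-191 is at -5.74 to -2.03 and filled throughout, miR-423-5p, miR-423-3p and miR-320a are above 0 throughout but not filled with joined totals and no factors, and miR-16b is open throughout.

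When the members themselves served as the scaling, the answer for all other miRNAs depended on which member was used. With the geometric mean of the 5 members, 58.0% of miRNAs were called, and of the 45 miRNAs that are not members 12 were higher in sheep and 13 higher in cow, against 10 and 14 with TMM. With miR-191 alone 34 of the 45 were higher in sheep and 1, miR-30b-5p, higher in cow. With miR-423-5p alone 5 were higher in sheep (let-7c, let-7i, miR-148a, miR-200b and miR-200c) and 24 higher in cow. With miR-423-3p the counts were 7 and 20, with miR-320a 4 and 22, and with miR-16b 14 and 6. Over all miRNAs tested, 79.6% were called with miR-191, 63.3% with miR-423-5p, 59.2% with miR-423-3p, 57.1% with miR-320a and 49.0% with miR-16b.

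Among the 45, 14 were called higher in sheep with one reference and higher in cow with another. miR-125b, for example, was at 5.03 with miR-191 (adjusted p = 2.17e-06 in edgeR) and at -1.40 with miR-423-5p (adjusted p = 0.0214 in edgeR). miR-26a was at 1.81 with miR-191 and -4.79 with miR-423-5p, past the threshold in both. Every such turn was between miR-191 and either arm of miR-423 or miR-320a: the opposite calls numbered 14 against miR-423-5p, 10 against miR-423-3p and 11 against miR-320a, and 0 for each of the other 7 pairs of references. By contrast, 25 miRNAs were called alike with miR-423-5p and miR-423-3p, and 25 with miR-423-5p and miR-320a. The miRNAs called alike with all 5 references were let-7c, miR-148a, miR-200b and miR-200c, higher in sheep, and miR-30b-5p, higher in cow. Of these, 3 rest on few counts in 1 species. In cow replicates 1, 2 and 3 miR-200b had 0, 1 and 0 counts and miR-200c had 7, 2 and 17. In sheep replicates 1, 2 and 3 miR-30b-5p had 12, 43 and 4 counts.

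**Figure D5:**
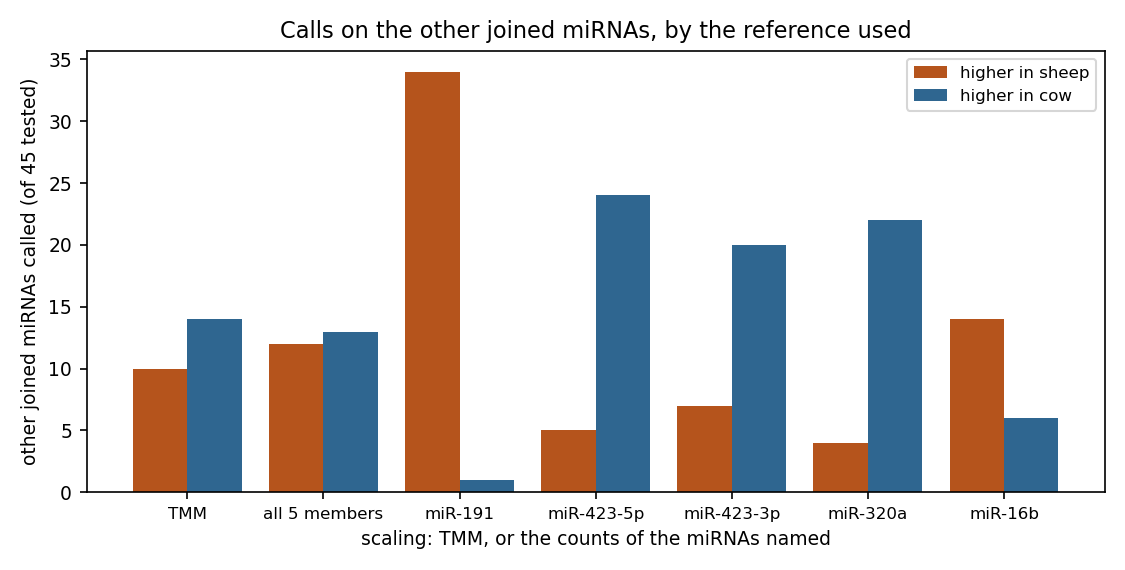
Number of the 45 other joined miRNAs called at an adjusted p under 0.05 in edgeR, higher in sheep (left bar) or higher in cow (right bar), with TMM, with the geometric mean of 5 reference miRNAs, or with each alone as the scaling. The split is 34 to 1 with miR-191, 5 to 24 with miR-423-5p and 4 to 22 with miR-320a.

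Relative to the members, each member was also tested against the mean of the others. That mean holds miR-191 for every other member, so by construction their values carry part of the miR-191 difference. miR-191 was at -5.71 ± 0.70 against the other 4, miR-423-5p at 2.58 ± 0.63, miR-423-3p at 2.01 ± 0.59, miR-320a at 2.52 ± 0.60, all past the threshold, and miR-16b at -1.29 ± 1.16, which did not pass (edgeR). Scaled by miR-423-5p alone, miR-320a differed between species by 0.02 ± 0.56 and miR-423-3p by -0.47 ± 0.53, neither past the threshold, while miR-191 differed by -6.60 ± 0.56 and miR-16b by -3.17 ± 1.24 and both passed. A p above the threshold does not show that miR-320a and miR-423 are alike in both species, and the SE leaves room for differences of about 1 log2 unit.

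The miRNAs whose pattern over the 6 libraries was nearest to the mean of the members, by the SD of the log2 ratio to it, were miR-181a (0.47), miR-221 (0.57), miR-125b (0.60) and let-7g (0.61), where the median of the 29 other miRNAs with at least 100 CPM in each species was 1.08. On TMM-scaled log2(CPM + 1), the miRNAs with the smallest SD over the 6 libraries were miR-125b (0.38), miR-181a (0.51), miR-30a-5p (0.54) and miR-29a (0.56), with a median of 1.20. The members had 0.99 (miR-423-3p), 1.15 (miR-320a), 1.16 (miR-423-5p), 1.26 (miR-16b, itself under 100 CPM) and 2.61 (miR-191), with 10, 14, 14, 15 and 26 of the 29 lower. With totals of the joined miRNAs in place of TMM the order changed: miR-423-5p had 0.49 and miR-423-3p 0.56 with 1 of 29 lower each, miR-125b had 0.82 with 3 lower, miR-181a 0.95 with 7 lower and miR-29a 1.00 with 8 lower. Over all miRNA counts miR-16b had 0.80 with 5 lower, miR-423-5p 1.62 with 18 lower and miR-30a-5p 1.10 with 13 lower. miR-191 had 3.33 with 26 lower over joined totals and 2.13 with 22 lower over all counts.

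Other miRNAs that are often proposed as references gave a mixed picture too. Of a list of 13, 7 were found in both tables and tested: let-7a-5p and let-7i were higher in sheep, miR-25, miR-26a and miR-103 higher in cow, and let-7g and miR-107 did not pass, with a median of -0.32. The 5 of 7 called stand against 56.0% of all miRNAs tested. miR-103 only just passed the threshold (-1.69 ± 0.69, adjusted p = 0.0498 in edgeR with TMM). miR-25 rested on 24, 108 and 1 counts in sheep replicates 1, 2 and 3. By edgeR with TMM let-7i was at 3.21 ± 0.65, let-7a-5p at 1.58 ± 0.48, miR-26a at -2.95 ± 0.59 and let-7g at 0.50 ± 0.53. The call of let-7a-5p was lost with no factors (0.24) and without sheep replicate 2 (1.37), sheep replicate 3 (1.45) or cow replicate 1 (1.38). That of miR-26a was lost on log2(TPM + 1) in limma (-0.26). let-7g was called higher in sheep without sheep replicate 1 (1.93), with miRBase names only (1.32) and on log2(TPM + 1) (3.02). The remaining 6 of the list (miR-24, miR-93, miR-186, miR-222, miR-361 and miR-425) were named in the cow table only.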

How the data were processed

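Per the labels' protocols, milk vesicles were precipitated with a commercial exosome kit, RNA was column-purified and libraries were made with an adapter-ligation small RNA kit. The tools named per the submitters' processing notes are Bowtie and cutadapt 1.14; genome build, miRBase release and counter were not named in the labels or headers read. The authors deposited whole-number counts per miRNA row and, in separate files, TPM, which equals the count divided by 1 constant per library (9859791 to 16091056) and scaled as its name says, without length correction.

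Rows were joined between tables by miRBase name without the species prefix (42 names), by names that differ only in the arm suffix where each table has 1 candidate (12), and by the rule for the reference miRNAs (3). No table of mature sequences was at hand, so the planned join of further unnamed rows by sequence was not made. No sheep row holds the middle bases of miR-484, which any run of 17 of its bases would include. Counts were tested with edgeR 4.0.16 (quasi-likelihood, TMM, library size equal to the joined total, default filterByExpr, threshold 0.05, Benjamini-Hochberg adjustment over all joined miRNAs tested); the SE is the log2 fold change over the root of its F statistic. Scaling by reference miRNAs used their geometric mean, or 1 of them left out of the fit, as size factors. Alternatives used DESeq2 1.42.0 and limma 3.58.1. The fit was tested on 20 simulated tables with 12 changed miRNAs each, balanced in direction. More miRNAs were called here, so that test does not show that TMM holds for these data. Permutation tests were exact and two-sided. Wilson intervals (95%) around a member's share of a library reached 0.058 percentage points; they cover counting error only, since PCR copies are not independent molecules.

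The miRNAs and lists were chosen with earlier results of these data known. The miRNAs named are every member, the 4 nearest to the members' mean and the 4 of smallest SD among miRNAs of at least 100 CPM in each species, and up to 4 of the highest mean CPM of each list; others were named after their values were seen.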

Additional observations from a re-analysis of the deposited data

How the results depend on the processing

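The total called (28 of 50) stayed within 1.5 times under all 26 alternatives (20 to 39), while its split (13 higher in sheep, 15 in cow) did not. Higher in sheep were 6 without factors, 38, 5, 7 and 4 with miR-191, miR-423-5p, miR-423-3p and miR-320a alone, and 29 and 25 with log2(TPM + 1) and log2(TPM + 10). Higher in cow were 9 with miRBase names only, 7, 1, 26 and 24 with miR-16b, miR-191, miR-423-5p and miR-320a alone, and 6 with either TPM scale. Leaving out each library gave 22 to 32 calls, 10 to 18 higher in sheep and 9 to 15 higher in cow. Members called numbered 4 of 5 tested, against 28 of all 50 miRNAs. Without factors 1 of 5 was called (miR-191), against 25 of 50, and with miRBase names only 1 of 2, against 20 of 38. With miR-423-5p, miR-423-3p or miR-320a alone 2 of 4 were called (miR-191 and miR-16b), against 31, 29 and 28 of 49. Without sheep replicate 1, 2 or 3, members called were 4, 3 and 3 of 5. All miRNAs called were then 27 of 46, 23 of 48 and 22 of 48. Without cow replicate 1, 2 or 3, members called were 2, 4 and 3 of 5. All miRNAs called were then 23 of 54, 25 of 55 and 32 of 55.

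Directions turned for miR-423-3p with miR-423-5p (-0.47) or miR-320a alone (-0.56). miR-16b ran from -2.24 to 0.017 without a single library, turning without sheep replicate 1, and turned with miR-191 alone (3.48), log2(TPM + 1) (0.99) and log2(TPM + 10) (0.39). let-7a-5p turned with miR-423-5p (-0.41) or miR-320a alone (-0.30), and miR-26a with miR-191 alone (1.81). let-7g turned without factors (-0.96), with at least 10 counts in every library (-0.0084), and with miR-423-5p (-1.57), miR-423-3p (-1.03) or miR-320a alone (-1.28). By construction each reference is fixed at 0 when used alone; other causes were not tested.

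The summed share differed by 5.15 percentage points over all counts, -13.4 over joined counts and 0.823 over the TPM constant, and by 4.19 to 6.35 without a single library. Joined counts keep the largest sheep row but not the largest cow row. Pairs without overlap numbered 7 to 8 without a single library. The median member CV in sheep was 47.4%, and 30.3%, 30.5% and 29.4% without the largest row, with TMM and with RLE; it ran from 15.5% to 45.3% without a single library. In cow it was 42.7%, and 24.1% to 43.97% without a single library. Lowering the abundance minimum to 10 CPM raised the median CV of all rows to 97.6% in sheep and 86.8% in cow. Same-numbered samples come from different animals and their deviations correlated at -0.094, 0.15 and 0.017, so the numbers do not pair them; the replicate block gave 26 calls, 13 in each direction, and ended no member's call. Totals without the largest row, miR-16a added to miR-16b, and the other scalings of the SD over 6 libraries were chosen after the data were examined. Depth limits miR-16b and miR-16a most, at 9 to 207 counts.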

Other observations

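Rows near the members in name or sequence held few counts. Cow miR-191b, a row named apart from miR-191, had 0, 16 and 0 counts in cow replicates 1, 2 and 3, and cow miR-320b had 0 in each, which allows up to 9.13 CPM in the shallowest cow library. In sheep, novel313_mature (tGAGGGGCagagagcaggac) has its first 15 bases in common with miR-423-5p and then departs from it, and had 5, 5 and 0 counts in replicates 1, 2 and 3, against 92850, 138871 and 82175 counts of miR-423-5p. novel296_mature (tGAGGGGCagagagagagg) shares the first 14 bases and had 2, 0 and 0 counts. The capitals mark bases 2 to 8.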
